A study of Homo sapiens with 4 samples.

Results

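The second part of an early response to Ricolinostat was followed between 6 and 12 hours in SUM149, a cell line established from an inflammatory breast cancer. The comparison sets the array of cells after 12 hours with 2.5 uM Ricolinostat (ACY1215) against the array of cells after 6 hours. Each gene was measured as the log2 ratio of the Cy5 channel, which held the sample, over the Cy3 channel, which held a common reference, and the value reported is the log2 ratio at 12 h minus that at 6 h. A gene counted as measured when at least 1 spot for it stood well above background in Cy5 and in Cy3, on the 6 h and also on the 12 h array, with no outlier flag set, and 20869 of the 34755 gene symbols on the arrays met this rule.

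The series holds 4 arrays, 1 of untreated SUM149 cells and 1 each after 3, 6 and 12 hours with the same dose, and its question was how gene expression of inflammatory breast cancer cells follows inhibition of HDAC6. Cells had been plated the day before treatment, and no array of vehicle-treated cells was analysed here, so time in culture and time with the drug cannot be told apart. The 6 h and 12 h arrays had the fewest outlier spots, 162 and 113 of 51599 spots with a gene symbol, against 493 on the untreated and 285 on the 3 h array. On the untreated and 3 h arrays 1026 and 1394 spots had a Cy3 signal at least 2-fold from its mean on the 6 h and 12 h arrays, whereas 152 spots lay that far from this mean between the 6 h and 12 h arrays themselves. With 1 array per time point there was no test between time points, and every value below is a difference between 2 arrays.

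HDAC6 is a deacetylase that acts mainly in the cytosol, on tubulin, the chaperone HSP90 and other proteins, and it carries misfolded protein to the aggresome. Ricolinostat is a hydroxamate that inhibits HDAC6 more strongly than the nuclear class I deacetylases. Cells answer misfolded protein in the endoplasmic reticulum (ER) with the unfolded protein response, answer it in the cytosol with heat shock chaperones, and switch on cytokine genes largely through NF-kB.

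Among genes above the median intensity, the largest differences upward from 6 to 12 h were those of the metalloreductase STEAP4, the cytokines IL24 and IL6, the ER protein HERPUD1 and the stress gene DDIT4. By the main measure metallothioneins had the highest median among the gene lists described below and heat shock chaperones the lowest. The top place changed with the processing, and cytokines took it with Cy5 alone. Of the 20869 genes, 143 (0.685%) were at least 2-fold higher at 12 h than at 6 h and 225 (1.08%) were at least 2-fold lower. At 1.5-fold, 858 genes (4.11%) were higher and 981 (4.7%) were lower. The median difference over all genes was 0.01 and 52.0% of genes lay above 0, so these shares are the background for every list described below.

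Most of the genes past 2-fold were dim. Among the 10434 genes above the median Cy5 intensity of 660 units, 18 were at least 2-fold higher and 16 at least 2-fold lower, against 125 and 209 among the 10435 genes below it. Repeated spots give the error of the measurement within the arrays: probes printed at least 9 times had a pooled standard deviation of the difference of 0.05 in the 215 brighter probes and 0.22 in the 17 dimmer ones. This error covers the arrays alone and not the spread between cultures, which was not measured. The Cy3 signal of the common reference moved by at least 0.5 between the arrays for 93 of the 368 genes past 2-fold. The largest differences were of this kind: SPINK5, a protease inhibitor of epithelia, was 3.16 higher while its Cy3 signal was 2.29 higher, and CA8, a protein related to carbonic anhydrases, differed by -2.98 while its Cy3 signal differed by -1.38. With another background correction and dye normalization (normexp and loess) 14 genes were at least 2-fold higher and 12 lower, so the counts changed with the treatment of the signals. Where a gene past 2-fold had a further probe, 39 of 64 such probes differed in the same direction and 6 of them by 2-fold. The genes named as the largest differences were therefore taken from the 9252 genes above the median intensity whose Cy3 signal moved by less than 0.5 and whose symbol is not a placeholder.

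**Figure D1:**
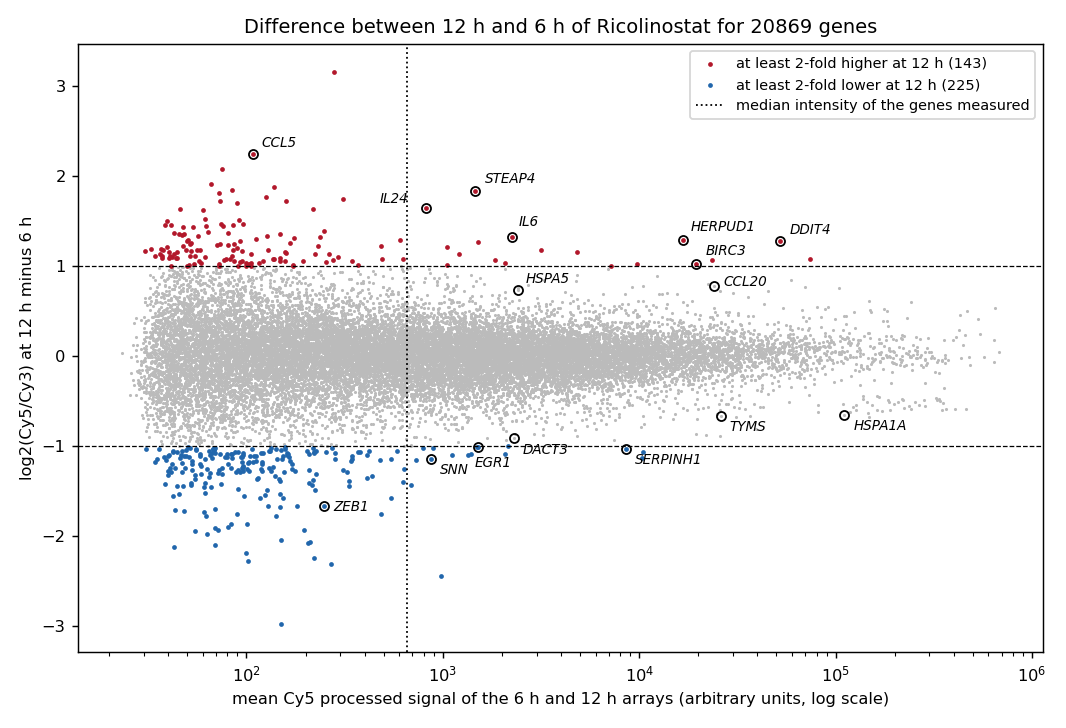
Log2(Cy5/Cy3) at 12 h minus 6 h on the vertical axis against the mean Cy5 processed signal of both arrays in arbitrary units on a log axis, 1 point per gene. Red and blue points are the 143 genes at least 2-fold higher and the 225 at least 2-fold lower, most of them left of the dotted median intensity, and black circles mark genes named in the text.

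STEAP4, a metalloreductase of the cell membrane, had the largest difference among the brighter genes. Its log2 ratio was 5.48 in untreated cells, 4.62 at 3 h, 4.17 at 6 h and 6.01 at 12 h, which is 1.84 higher at 12 h than at 6 h, and its second probe was 1.65 higher. The dip and return of STEAP4 were shared by IL24, a cytokine of the IL-10 family, whose log2 ratio was 3.57 untreated, 2.49 at 3 h, 2.28 at 6 h and 3.92 at 12 h, a difference of 1.64. IL6, the inflammatory cytokine that signals through STAT3, took another course, with log2 ratios of -0.95, -1.33, -0.48 and 0.84 at 0, 3, 6 and 12 h and a difference of 1.32. The array at 12 h was thus the highest of the 4 for each of these 3 genes.

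HERPUD1, an ER membrane protein that helps to dispose of misfolded ER proteins, was nearly level over the first 6 h, with log2 ratios of -2.74 untreated, -2.86 at 3 h and -2.43 at 6 h. At 12 h it stood at -1.14, a difference of 1.29. DDIT4 (REDD1), a stress-induced inhibitor of the mTORC1 growth kinase, was measured by 9 spots and had log2 ratios of 1.37 untreated, 0.70 at 3 h, 0.39 at 6 h and 1.67 at 12 h, so that it was low at 6 h and 1.28 higher at 12 h. BIRC3 (cIAP2), a ubiquitin ligase and NF-kB target that protects from cell death, was at 1.74, 1.57, 2.65 and 3.68, a difference of 1.02 on top of an earlier one. Each of the 3 was therefore highest at 12 h, and their Cy5 signals went from 11712 to 23978 units for HERPUD1, from 35507 to 76761 for DDIT4 and from 13299 to 28658 for BIRC3.

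The other large differences upward belonged to genes of varied function. UCA1, a long noncoding RNA, was 1.16 higher at 12 h than at 6 h, with a second probe at 0.99. ZNF165, a zinc finger protein, was 1.18 higher. CLIP4, of a family of microtubule-binding proteins, was 1.14 higher by its main probe, 0.62 and 0.02 by its other probes, so its probes did not give 1 value. DKK1, a secreted antagonist of Wnt signalling, was 1.02 higher, and PLAU (urokinase), which activates plasminogen, was just past 2-fold, each after a dip: DKK1 went from 2.82 untreated to 1.64 at 6 h and 2.66 at 12 h.

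The 10 largest differences downward among the brighter genes ran from -1.16 to -1.01, and 5 of them rested on 1 of several probes. SNN (stannin), a small membrane protein, had log2 ratios of -1.90 untreated, -0.45 at 3 h, 0.05 at 6 h and -1.09 at 12 h, a difference of -1.15 from 6 to 12 h. The difference was -1.09 for CCDC96, a coiled-coil protein, and -1.09 for FAM126B, of the hyccin family, whose second probe gave -0.80. SERPINH1 (HSP47), the ER chaperone of collagen, went from -0.47 untreated and -0.56 at 3 h to -0.96 at 6 h and -1.99 at 12 h, a difference of -1.03. EGR1, an immediate early transcription factor, was at -3.79, -3.40, -3.41 and -4.41, a difference of -1.01 that left it below the untreated array.

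The probes of the other 5 genes disagreed. TTN-AS1, a noncoding RNA antisense to titin, differed by -1.16 in its main probe and by -0.88, -0.16, 0.06 and 0.13 in its other 4. RABGAP1L, a regulator of Rab GTPases, differed by -1.08 in its main probe while its other 4 probes lay between 0.09 and 0.42. CBFA2T2, a transcriptional corepressor, gave -1.10, -0.68 and -0.07. ANKFY1, an endosomal protein, gave -1.02 and 0.03, and EPS15, an adaptor of endocytosis, gave -1.01 and 0.01. As means over their probes, CBFA2T2 differed by -0.62, EPS15 by -0.50, ANKFY1 by -0.49, TTN-AS1 by -0.40 and RABGAP1L by -0.02, and none of these 5 was past 2-fold by that measure.

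The step from 6 to 12 h was next read against the step from untreated cells to 6 h, for the 19959 genes that also passed on the untreated array with a Cy3 signal within 2-fold. The 6 h array enters both steps with opposite sign, so an error on it alone would make a gene appear to go one way and then back, and the counts below carry that limit. Of 1092 genes at least 2-fold above the untreated array at 6 h, 850 (77.8%) moved by less than 1.5-fold in the next 6 hours. Of 583 genes at least 2-fold below it, 437 did. Steps of at least 1.5-fold were still more frequent in both groups than among all 20869 genes, where 4.11% were higher and 4.7% lower. Among the 1092 raised genes 768 were lower at 12 h than at 6 h, and among the 583 lowered genes 451 were higher. The median next step was -0.23 for the raised genes and 0.29 for the lowered genes.

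Genes that were raised at 6 h and higher again at 12 h by at least 1.5-fold were few, 30 of 19959 (0.15%). The rule itself places all 30 at least 2-fold above the untreated array at 12 h, and their median there was 2.10. Of the 29 with a value at 3 h, 9 were 2-fold above the untreated array at that time. CCL20, the chemokine that draws CCR6-bearing lymphocytes, had log2 ratios of 1.08 untreated, 2.09 at 3 h, 3.01 at 6 h and 3.80 at 12 h. CLDN1, a tight junction protein, stood at 0.24, 1.10, 1.56 and 2.37. The remaining named genes were NRGN (neurogranin), a calmodulin-binding protein that was 0.91 higher at 12 h than at 6 h, REEP2, which shapes the ER, 0.78 higher, and RIMS3, a presynaptic protein, 0.72 higher. The second RIMS3 probe, which was dim, was 1.10 higher, with a Cy3 signal lower by a difference of -0.53. At 6 h that probe lay only 0.15 above untreated, so it had not been raised by then.

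Genes that were raised at 6 h and lower again at 12 h by at least 1.5-fold numbered 212 (1.06%). Their median was 1.44 above untreated at 6 h and -0.85 in the next step, and at 12 h 114 of them were within 1.5-fold of the untreated array while 48 were still at least 2-fold above it. Of the 205 with a value on the 3 h array, 122 had been at least 2-fold above untreated at 3 h. The 3 h array has no part in the step from 6 to 12 h. The untreated array, however, enters both this count and the choice of the group, so the count is not independent of that choice. VASN (vasorin), a membrane protein that binds TGF-beta, shows this course, with log2 ratios of -3.83 untreated, -2.08 at 3 h, -2.11 at 6 h and -3.07 at 12 h. DACT3, an inhibitor of Wnt signalling, came down by a difference of -0.91, from 2.38 at 6 h to 1.47 at 12 h, and remained far above its untreated value of -3.24. CTGF, a secreted target of YAP, went from -2.45 untreated to 0.26 at 6 h and -0.39 at 12 h, and MXD1, a partner of MAX that opposes MYC, from -0.93 to 0.52 and then -0.12.

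The mirror group, lowered at 6 h and higher again at 12 h, held 137 genes (0.686%). At 12 h 86 of them were within 1.5-fold of the untreated array and 17 were still at least 2-fold below it. Of the 129 with a 3 h value 47 had been at least 2-fold below untreated at 3 h, a count that again shares the untreated array with the choice of the group. STEAP4, IL24, ZNF165, CLIP4 and DKK1 led this group, and MYC, the growth-promoting transcription factor, belonged to it: over 8 spots its log2 ratio was -0.39 untreated, -1.34 at 3 h, -1.51 at 6 h and -0.82 at 12 h. The cytokine LIF went from 0.12 untreated to -1.39 at 6 h and -0.42 at 12 h.

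Genes near untreated at 6 h were held to a larger second step, 2-fold in place of 1.5-fold, so their counts do not compare with those above. Of the genes within 1.5-fold of untreated at 6 h, 46 (0.23% of the 19959) were at least 2-fold higher at 12 h than at 6 h and IL6 and HERPUD1 were among them. In the other direction 61 (0.306%) were at least 2-fold lower, among them SERPINH1 and EGR1. At 1.5-fold for every step these groups held 401 and 453 genes, against 378 raised and lower again. Of the 46 and the 61, 4 and 5 lay above the median intensity, and 17 of the 61 were protein-coding. Genes lowered at 6 h and lower again at 12 h numbered 9 (0.0451%). LMNB1 (lamin B1), a protein of the nuclear lamina, had log2 ratios of 1.28 untreated, 1.09 at 3 h, 0.10 at 6 h and -0.70 at 12 h. KLHL35 differed by -0.90 from 6 to 12 h, ZCWPW1, a reader of histone marks, by -0.71, and IL27RA, a cytokine receptor subunit, by -0.62.

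**Figure D2:**
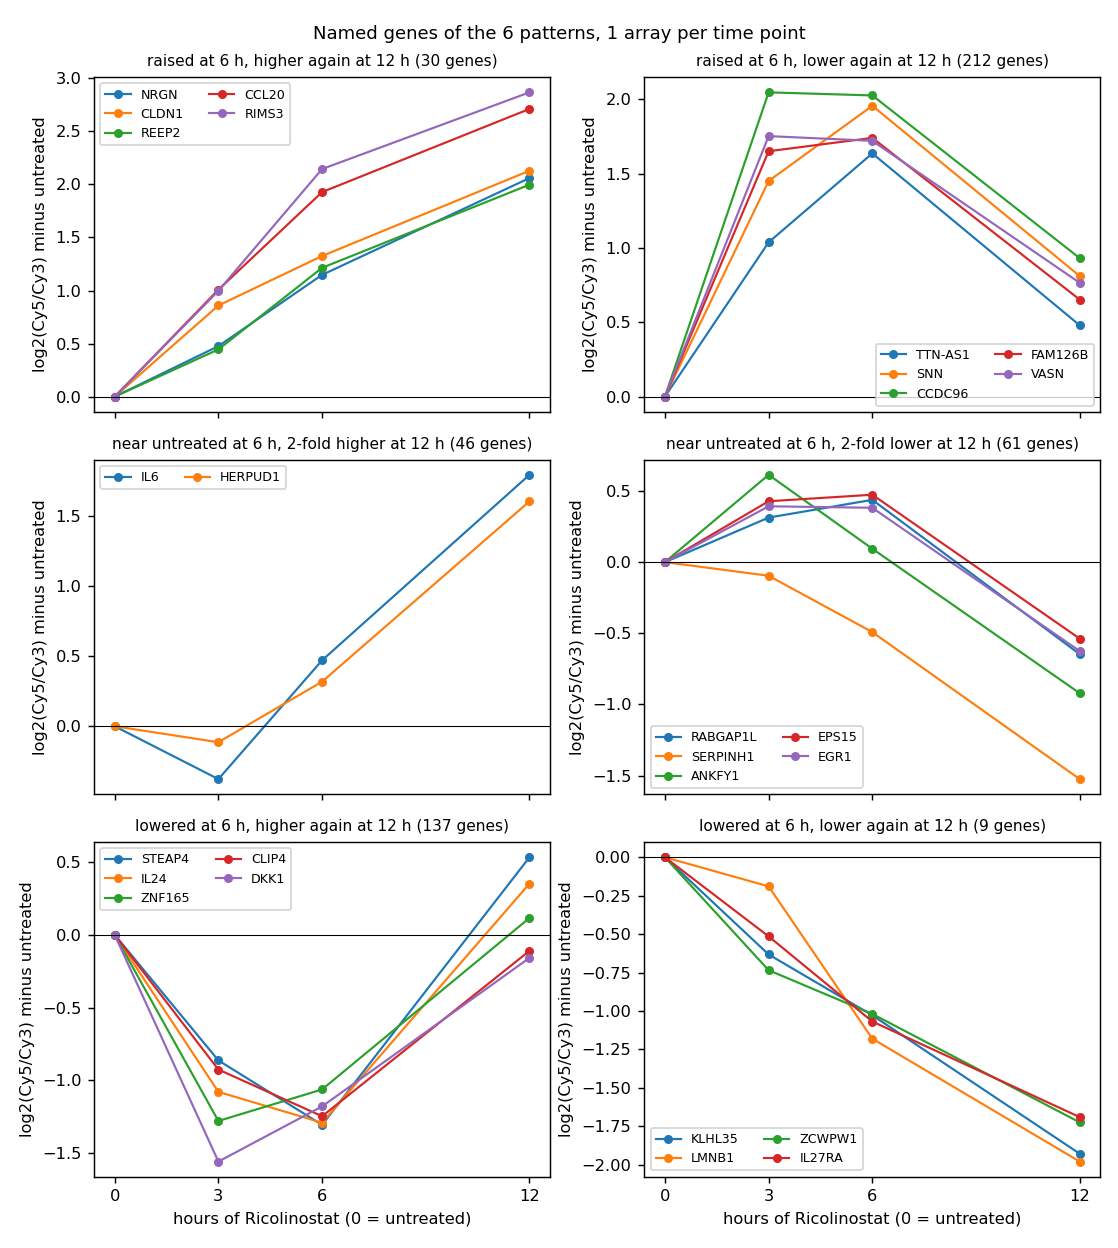
Log2(Cy5/Cy3) relative to the untreated array on the vertical axis, which differs in range between panels, against hours of Ricolinostat, for genes named by rule in each of the 6 patterns, 1 array per point and no error bars. Titles give the number of genes in each pattern, 30, 212, 46, 61, 137 and 9, and the lines show the turn or continuation at 6 h that defines it.

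Of 23 chemokines and inflammatory cytokines 21 were measured, 19 of them above 0 and 2 below, with a median difference of 0.33 against 0.01 over all genes. With Cy5 alone the median was 0.58. At 1.5-fold 9 were higher and 1 lower, and at 2-fold 3 were higher: IL24, IL6 and CCL5, a chemokine for T cells. CCL5 went from -2.32 at 6 h to -0.08 at 12 h, a difference of 2.25, but it was dim, with 331 units at 12 h, its Cy3 signal was 0.99 higher too, and with normexp and loess the difference was 0.52. The members differed in where they came from. CXCL8 (interleukin 8), which attracts neutrophils, was already raised at 6 h and went from 1.17 untreated and 1.40 at 3 h to 2.53 and then 3.13. IL1B, an early cytokine of inflammation, was level until 6 h, at 4.11, 3.99 and 3.88, and stood at 4.77 at 12 h. CXCL3, another neutrophil chemokine, had been lower and returned in part, from 3.67 untreated to 2.15 at 6 h and 2.78 at 12 h. TNF went the other way, from 4.83 untreated to 6.37 at 6 h and 5.66 at 12 h, and was the 1 member at least 1.5-fold lower. CXCL10 and CXCL6 were not measured.

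The NF-kB list, which holds the subunits of this transcription factor and its feedback genes, had 15 of 19 members above 0, with a median of 0.22, or 0.13 with normexp and loess, and 1 was past 2-fold, BIRC3. Behind it were BCL3, a nuclear cofactor of NF-kB, 0.58 higher, and TNFAIP2 0.53 higher. The subunit genes themselves lay on both sides of 0. REL differed by -0.33, NFKB1 by -0.05, RELB by 0.02, RELA by 0.12 and NFKB2, which was dim, by 0.32. NFKBIE and NFKBIZ, which encode proteins of the IkB family, were lower, by -0.39 and -0.37. The interferon-stimulated genes, the other list of innate immune genes, had 16 of 24 members above 0 and a median of 0.16. IFIT3 was 0.71 higher and IFI44 differed by -0.57, both of them dim. With normexp and loess the median was 0.06 and IFIT3 was 0.11 higher.

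Cell-type markers were read beside these lists because immune cells also make cytokines. All 14 markers of basal and epithelial breast cells were well above background on both arrays, and the sum of their Cy5 signals was 1019480 units at 6 h and 1270950 at 12 h. The sums over the lists for luminal hormone receptor cells, fibroblasts, immune cells, endothelial cells and hepatocytes lay between 957 and 7139 units. PGR and COL3A1 were not well above background on either array. All 5 immune markers on the arrays were above background at both times, and the sum for them was 3981 units at 6 h and 4286 at 12 h. PTPRC (CD45), the common leukocyte antigen, was 1.82 higher but at 38.2 and 139 units, while CD3D differed by 0.04 and CD14 by 0.19. The part of other cells in the cytokine values was not tested. In RNA of whole cultures, more cells with a transcript and more transcript per cell cannot be told apart.

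Of 25 genes of the unfolded protein response, 21 were above 0 and 4 below, with a median of 0.17; 3 were at least 1.5-fold higher and none at least 1.5-fold lower. After HERPUD1 came HSPA5 (BiP), the main chaperone of the ER, with log2 ratios of -1.42 untreated, -1.12 at 3 h, -0.64 at 6 h and 0.09 at 12 h, a difference of 0.74. XBP1, the transcription factor of this response, had gone from -1.89 untreated to -3.08 at 6 h and was at -2.38 at 12 h, a difference of 0.70 over 9 spots. Smaller differences in the same direction were found for DDIT3 (CHOP), at 0.37, for the disulphide isomerase PDIA4, at 0.35, and for SDF2L1, at 0.31. ATF4, which relays amino acid and ER stress, differed by 0.11. Among 24 ATF4 targets and genes of amino acid metabolism the values were divided, 13 above 0 and 11 below, with DDIT4 the 1 past 2-fold and ATF5, a related factor that was dim, at -0.64.

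Heat shock chaperones were the list with the lowest median, -0.27, or -0.16 with Cy5 alone, with 15 of 20 members below 0 and 5 above. HSPA1A (HSP70), measured by 9 spots, had been raised in the first 6 h and came part of the way back, with log2 ratios of 0.68 untreated, 2.05 at 3 h, 2.62 at 6 h and 1.96 at 12 h, a difference of -0.66. HSPA1B, a nearly identical gene whose probe may also bind HSPA1A, gave -0.66 as well. DNAJB1 (HSP40), the partner of HSP70, was at 0.53, 1.10, 1.63 and 1.25. Both lay above the untreated array at every time measured. The mitochondrial chaperone HSPD1 differed from them, with 0.23 untreated, 0.09 at 6 h and -0.23 at 12 h, and HSP90AA1, which encodes an HSP90 form, differed by -0.01.

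**Figure D3:**
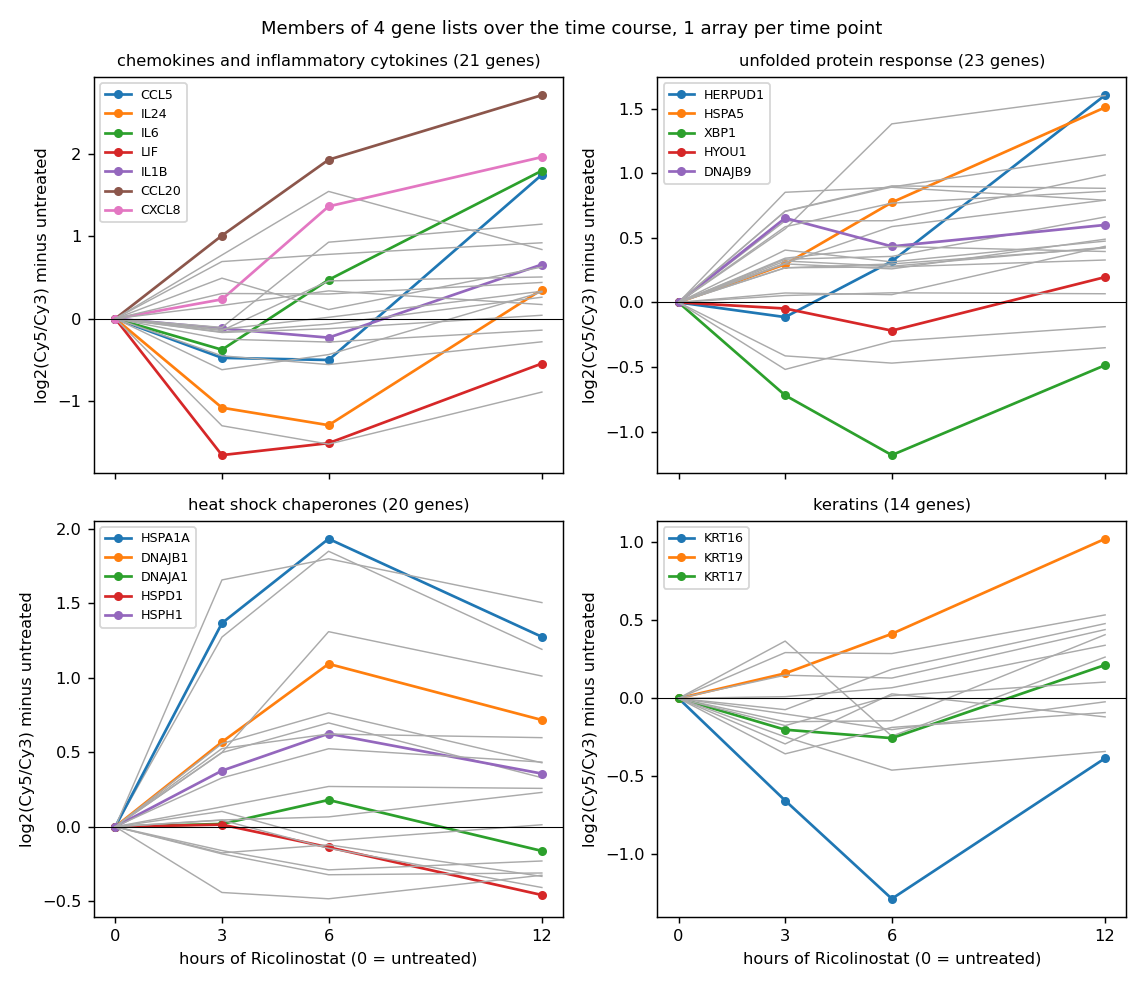
Log2(Cy5/Cy3) relative to the untreated array on the vertical axis, with a range that differs between panels, against hours of Ricolinostat, for the members of 4 gene lists that also passed on the untreated array; grey lines are members not labelled. The cytokine and ER panels show lines going up after 6 h, the heat shock panel shows HSPA1A and DNAJB1 coming down from their values at 6 h, and keratins KRT16, KRT17 and KRT19 go up after 6 h.

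The promoters of genes from the cytokine, NF-kB and ER lists are shown to set the sequence beside these values. The promoter of a gene is here the 300 bases from 250 before to 50 after its start, taken from RefSeq on GRCh38.p14, written 5′ to 3′ on the gene's strand in lower case with the motif in capitals. For the ER genes HERPUD1 and HSPA5 the capitals mark an ER stress element, which reads CCAAT and, after 9 further bases, CCACG (the long form, HSPA5) or ATTGG and, after 1 further base, CCACG (the short form, HERPUD1).

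HERPUD1, chr16:56931892-56932191, plus strand: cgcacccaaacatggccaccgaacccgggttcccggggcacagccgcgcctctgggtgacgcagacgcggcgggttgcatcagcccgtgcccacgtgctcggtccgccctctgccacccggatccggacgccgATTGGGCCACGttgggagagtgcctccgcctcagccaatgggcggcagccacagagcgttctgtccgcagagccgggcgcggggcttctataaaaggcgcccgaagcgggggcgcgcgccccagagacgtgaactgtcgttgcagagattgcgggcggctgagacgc

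HSPA5, chr9:125241294-125241593, minus strand: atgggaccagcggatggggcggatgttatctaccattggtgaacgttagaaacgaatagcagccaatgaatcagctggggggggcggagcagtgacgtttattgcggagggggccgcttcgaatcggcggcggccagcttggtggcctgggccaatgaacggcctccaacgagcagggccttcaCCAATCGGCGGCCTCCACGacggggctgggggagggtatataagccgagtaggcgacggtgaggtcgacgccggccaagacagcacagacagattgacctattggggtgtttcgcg

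For CCL20, IL6 and BIRC3 the capitals mark a kappaB motif, GGG followed after 2 bases by TTTCC, or its reverse complement, the kind of site that NF-kB binds.

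CCL20, chr2:227813592-227813891, plus strand: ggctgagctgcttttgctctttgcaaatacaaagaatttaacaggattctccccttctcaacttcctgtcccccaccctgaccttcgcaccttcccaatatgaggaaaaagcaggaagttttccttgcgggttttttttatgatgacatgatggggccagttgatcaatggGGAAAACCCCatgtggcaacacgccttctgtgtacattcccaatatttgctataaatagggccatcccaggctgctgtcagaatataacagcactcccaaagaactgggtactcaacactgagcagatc

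IL6, chr7:22726950-22727249, plus strand: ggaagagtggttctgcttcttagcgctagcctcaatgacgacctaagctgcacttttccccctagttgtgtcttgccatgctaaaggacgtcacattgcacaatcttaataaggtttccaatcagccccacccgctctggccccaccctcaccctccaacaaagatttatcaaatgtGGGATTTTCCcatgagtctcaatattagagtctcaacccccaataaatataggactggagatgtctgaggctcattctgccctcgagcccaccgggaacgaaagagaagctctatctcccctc

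BIRC3, chr11:102317234-102317533, plus strand: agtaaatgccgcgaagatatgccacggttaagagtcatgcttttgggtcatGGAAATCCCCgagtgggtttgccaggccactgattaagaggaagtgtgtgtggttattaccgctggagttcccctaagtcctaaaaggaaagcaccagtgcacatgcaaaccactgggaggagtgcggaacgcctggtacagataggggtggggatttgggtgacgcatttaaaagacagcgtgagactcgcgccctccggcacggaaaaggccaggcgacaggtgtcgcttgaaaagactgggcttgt

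The motif began 117 bases before the start in HERPUD1, 66 in HSPA5, 79 in CCL20, 73 in IL6 and 199 in BIRC3. On either strand, the kappaB motif was found in 671 of the 35116 promoters in the table (1.91%), which is 635 of its 27305 genes. It was in the promoters of 8 of 16 cytokine genes with one (CCL20, CXCL6, CXCL1, CXCL5, CXCL3, CXCL2, IL6 and IL32) and of 9 of 17 genes of the NF-kB list. The 7 of these 8 cytokine genes that were measured differed between 12 and 6 h by -0.17 in CXCL5 and by 0.28 to 1.32 in the others, while REL, NFKBIZ and NFKB1, whose promoters also hold the motif, were below 0. Cytokine list members outside these 8 ran from -0.70 in TNF to 2.25 in CCL5, and not every one of them had a promoter in the table. The median of the whole cytokine list was 0.33. A link between the motif and the differences was not tested. The long form of the ER stress element was found in 27 of all promoters (0.0769%), of 25 genes, and in those of 7 of 24 genes of the unfolded protein response. The short form was found in 19 promoters (0.0541%), of 19 genes, and in those of 3 of the 24, HYOU1, HERPUD1 and SDF2L1. HSPA5 and XBP1 hold the long form and so do CALR, CANX, PDIA6 and HSP90B1, which differed by 0.20, 0.12, 0.05 and 0.23, and CRELD2, by -0.01. A match describes the letters in the window and is no measured binding site.

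Keratins, the filament proteins of epithelial cells, were higher as a list, with 16 of 17 members above 0 and a median of 0.31. KRT16, a keratin of stressed epithelium, had the largest difference, 0.90, on its way back from 4.85 untreated and 3.56 at 6 h to 4.46 at 12 h, with a Cy3 signal that was lower by a log2 difference of -0.63. KRT19 stood at -0.20, -0.04, 0.21 and 0.82 and so had no dip. Keratin genes resemble each other, and their probes may share signal. Metallothioneins, which bind zinc and copper, had the highest median of all 40 lists by the main measure, 0.45, with 9 of 11 members above 0. With Cy5 alone their median was 0.35, below 0.58 for cytokines and 0.44 for keratins. Cytokines also ranked above them in the authors' table, 0.39 against 0.35, and as means over probes, 0.46 against 0.42. MT1X differed by 0.69. MT2A differed by 0.54, with a Cy5 signal 0.19 higher and a Cy3 signal lower by a difference of -0.35, and by 0.29 in the authors' table. MTF1, the transcription factor that controls them, was lower, by -0.34. Metallothionein probes can also bind several family members.

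**Figure D4:**
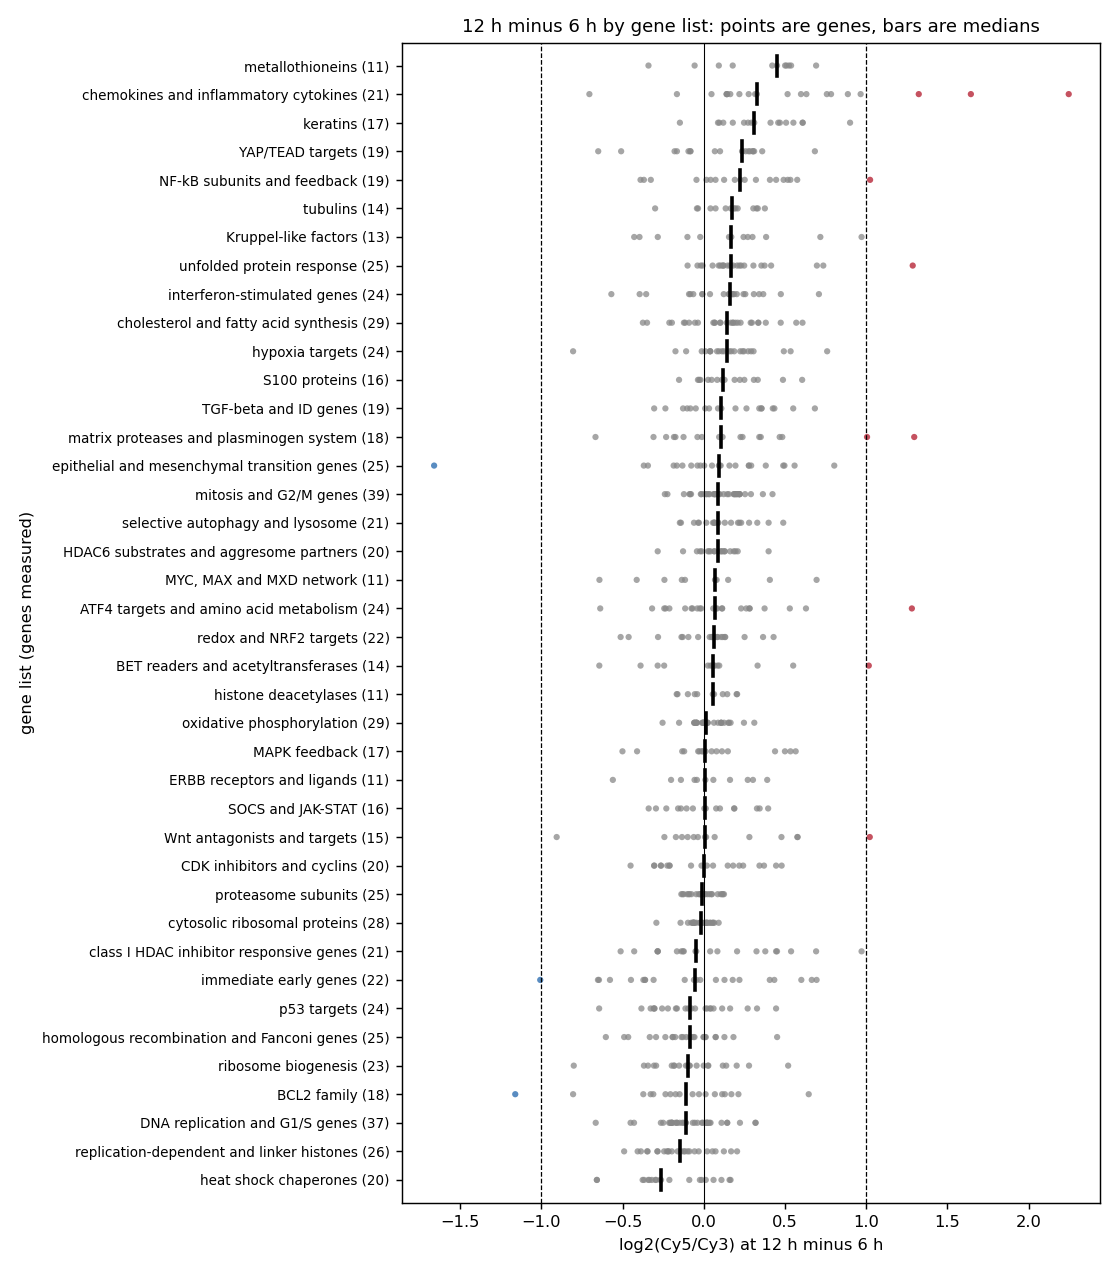
Log2(Cy5/Cy3) at 12 h minus 6 h for every measured member of 40 gene lists, 1 grey point per gene (red or blue where past 2-fold, at the dashed lines) and a black bar at the median; the number of genes measured is in brackets. Medians ran from 0.45 in metallothioneins and 0.33 in chemokines and inflammatory cytokines to -0.27 in heat shock chaperones.

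In the list of matrix proteases and the plasminogen system, 10 of 18 members were above 0, a share near that of all genes, and the median was 0.10, or 0.04 with normexp and loess. Members past 2-fold were PLAU and SERPINB2, an inhibitor of urokinase, which was dim at 6 h and went from 0.36 to 1.65, a difference of 1.30. PLAU went from -0.36 untreated to -1.15 at 6 h and -0.15 at 12 h. MMP3 (stromelysin), a matrix protease, differed by -0.67 and was dim, at 65.1 units at 6 h and 38.4 at 12 h. The list of 25 genes of the transition between epithelial and mesenchymal states had a median of 0.09. In it CLDN1 was 0.80 and OVOL2, a factor that keeps cells epithelial, 0.56 higher. The Cy5 signal of OVOL2 was only 0.09 higher, and its Cy3 signal was lower by a difference of -0.47. ZEB1, which represses epithelial genes, was lower, by -1.66, at 117 units at 12 h. With normexp and loess ZEB1 differed by -0.78. CDH1 (E-cadherin) was 0.29 higher, and SNAI1 and SNAI2, other repressors of CDH1, differed by -0.37 and -0.34. Not all members were divided in this way: EPCAM, an epithelial member, differed by -0.13, and MMP2, a mesenchymal one, by 0.09.

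Growth and early response genes lay on both sides of 0. Of 22 immediate early genes 9 were above 0 and 13 below, with a median of -0.05; 3 were at least 1.5-fold higher and 3 lower. FOS differed by -0.65, EGR2 by -0.65 and EGR1 by -1.01, whereas MYC was 0.69, FOSL2 0.66 and JUNB 0.60 higher. Of these, EGR2, FOSL2 and JUNB were dim. Among Kruppel-like factors KLF6 was 0.97 higher, after a dip, and KLF2, which was dim, differed by -0.43. In the BCL2 family, which controls cell death, BCL2L1 (BCL-XL), which was dim, was 0.65 higher, or 0.44 with normexp and loess. BCL2 differed by -1.16 in a dim probe, by -0.17 in another, and by -0.43 in the first with normexp and loess. BNIP3L, of the same family and a hypoxia target, gave -0.81 in its main probe but 0.33 and 0.35 in its other 2. The hypoxia targets as a list had 20 of 24 members above 0, with a median of 0.14 and ANKRD37 at 0.76.

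The lists of mitosis and of DNA replication lay on opposite sides of 0. Of 39 genes of mitosis 31 were above 0, with a median of 0.09, and none reached 1.5-fold. PLK1, a mitotic kinase, was the highest at 0.42, followed by CENPA, the histone of centromeres, at 0.36. Of 37 genes of DNA replication 24 were below 0, with a median of -0.11, and TYMS (thymidylate synthase) was lowest, going from 0.15 untreated to -0.19 at 6 h and -0.86 at 12 h. Histones had 20 of 26 members below 0 (median -0.15), and genes of homologous recombination and the Fanconi pathway 17 of 25 (median -0.09). XRCC3 of the last list gave -0.60 in its main probe and 0.07 in its second.

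The lists nearest to the drug's target differed little between 6 and 12 h. HDAC6 had log2 ratios of -0.70 untreated, -1.23 at 3 h, -1.24 at 6 h and -1.40 at 12 h, a difference of -0.16. Its second probe differed by -0.38 and the mean over both probes by -0.27. The RNA level is no measure of the enzyme's inhibition. By their representing probes all 11 histone deacetylases lay between -0.17 and 0.20. Of 20 substrates and aggresome partners of HDAC6 15 were above 0, none by 1.5-fold, with OPTN, an autophagy receptor, at 0.40 and DYNLL1, a dynein light chain, at -0.28. Genes known to respond to inhibitors of class I deacetylases were divided, 10 above 0 and 11 below. CDKN1A (p21), a cell cycle inhibitor of that list that was dim, was 0.44 higher after 0.75 untreated and 2.24 at 6 h. In proteasome subunits, cytosolic ribosomal proteins and oxidative phosphorylation, no measured member of 25, 28 and 29 reached 1.5-fold, and the medians were -0.01, -0.02 and 0.01.

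Of 19 targets of YAP and TEAD, factors of contact and stretch, 12 were above 0, with a median of 0.24 that was 0.02 with normexp and loess, 0.09 with the authors' table and 0.12 with Cy5 alone; TGFB2 was 0.68 higher and CTGF lower, by -0.65. The remaining lists had smaller medians. They were above 0 in tubulins (0.18), Kruppel-like factors (0.17), cholesterol and fatty acid synthesis (0.14), S100 proteins (0.12), and TGF-beta and ID genes (0.11). STARD4, a sterol carrier, was 0.61 higher and ID3 0.55 higher. Selective autophagy and lysosome genes had 16 of 21 members above 0, with WIPI1, an autophagy protein, 0.49 higher. Medians between -0.10 and 0.07 were found for MAPK feedback, SOCS and JAK-STAT genes, Wnt antagonists and targets, ERBB receptors and ligands, redox and NRF2 targets, CDK inhibitors and cyclins, the MYC network, p53 targets, acetyltransferases and BET readers, and ribosome biogenesis. In these, KAT6B, an acetyltransferase, was 1.02 higher in 1 dim probe but differed by -0.91 in another, and by 0.05 as the mean over probes.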

How the data were processed

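RNA of SUM149 cells was hybridised to 4 two-colour Agilent arrays that shared 1 slide and 1 scan, which leaves no batch to compare. The authors deposited the scanner output of each array, made with Feature Extraction 12.0.1.1, and the processed signals used here are intensity values after that software's background subtraction and dye normalization. A second table that the authors deposited holds log2 ratios after a normalization not given in the sources used here. It served for gene symbols and as an alternative. Scale and centring of that table stay unknown beyond its slope on the processed log2 ratios of 0.87 at 6 h and 0.86 at 12 h and its medians of 0.17 and 0.18, and its direction was the same (correlation across spots 0.986 on both arrays).

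The log2 ratio of processed Cy5 over Cy3 signals was taken with no pseudocount. Control spots were left out. Spots passed when well above background in both channels on both arrays and free of non-uniformity and population outlier flags, which left 30064 spots of 27623 probes, and no spot was saturated. Spots of 1 probe were averaged, and each gene then took the value of its probe brightest in Cy3. The labels call the reference a pool of all SUM149 samples, yet 529 genes had a log2 ratio below -3 on both arrays. What a common reference contained cancels in differences between the arrays, but a change in its signal need not. The Cy3 signal differed by at least 2-fold between the 6 h and 12 h arrays for 190 genes. Probes have no coordinates here, since their design used another genome build, and of the 20869 genes measured 16646 matched the RefSeq gene table of GRCh38.p14. No test was made between single arrays, and precision is limited by their number.

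Gene lists, patterns and the genes to be named were chosen with earlier results of these data known. Named were HDAC6, the 10 largest differences in each direction and the 5 largest of each pattern among bright genes with a stable Cy3 signal, and in each list the 3 largest differences and all past 2-fold, while other list members and SPINK5, CA8 and the marker genes were chosen after their values were seen. Alternatives were normexp with an offset of 50, loess and Aquantile in limma 3.58.1 and R 4.3.3, Cy5 alone (75th percentile), the deposited table, centring, the mean over probes, a weaker background criterion, outlier spots kept, brighter genes only, and a 1.5-fold threshold. The code was tested on simulated data in Python 3.11.15 with numpy 2.4.6 and pandas 2.3.3, and figures were drawn with matplotlib 3.10.9. Some genes that met the rule for naming are not reported here.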

Additional observations from a re-analysis of the deposited data

How the results depend on the processing

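No paired analysis was possible because there was 1 array for every time. The counts of genes depended on how the signals were treated, and the cause was not tested. In the order of genes 2-fold higher at 12 h, 2-fold lower, raised at 6 h and higher again, raised and lower again, near untreated at 6 h and then lower, near untreated and then higher, lowered and lower again, and lowered and higher again, the counts were 143, 225, 30, 212, 61, 46, 9 and 137 as reported. They were 14, 12, 8, 62, 3, 3, 0 and 15 with normexp and loess, 31, 59, 15, 126, 18, 10, 2 and 45 with the authors' table, 18, 16, 11, 55, 5, 4, 4 and 24 among genes above the median intensity, where fewer genes were counted, 804, 879, 78, 475, 259, 197, 27 and 436 with signals only required to be positive and significant over background, which admitted 25434 genes, and 858, 981, 83, 378, 453, 401, 57 and 286 at 1.5-fold. Of the 14 and 12 genes past 2-fold with normexp and loess, 12 and 12 were among the 143 and 225. With Cy5 alone the genes lowered at 6 h and lower again numbered 17, and the other 7 counts stayed within 1.5 times, but the genes differed: 70 of the 143 higher and 153 of the 225 lower genes were past 2-fold with Cy5 alone, and 5 and 8 had the opposite sign. Centring, the mean over probes and keeping outlier spots moved no count by more than 1.5 times.

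Of 135 genes named by rule, 132 kept their direction under every alternative run, and the other 3, HDAC10 and VLDLR among them, did not in at least 1 of them. All 27 named genes past 2-fold kept their direction, and 12 were past 2-fold under every alternative, among them STEAP4, IL24, IL6, HERPUD1, DDIT4, ZNF165, UCA1, BIRC3 and DKK1 above, and SNN and CCDC96 below. The 6 lists with a median of at least 0.2 in size kept their sign under the 8 alternatives to which a median applies, although that of YAP/TEAD targets came down to 0.02. Several smaller medians changed sign: of all 40, 34 had the same sign with normexp and loess and 35 among genes above the median intensity. That of the BCL2 family came to 0.04 with the mean over probes. Those of histone deacetylases, Wnt antagonists and targets and the MYC network came to -0.04, -0.12 and -0.02 among genes above the median intensity. The median of DNA replication was -0.02 with Cy5 alone, and those of S100 proteins, Kruppel-like factors and TGF-beta and ID genes reached 0.23, 0.26 and 0.26 at the most. Genes not past 2-fold whose difference moved by over 1.5 times came to KRT16 0.43, OVOL2 0.25, DYNLL1 -0.16 and CDKN1A 0.77 with Cy5 alone, FOSL2 0.39, ATF5 -0.41 and RIMS3 0.46 with normexp and loess, and XRCC3 -0.27 and BNIP3L -0.04 as means over probes. Genes with a Cy5 signal well above background on 1 of the 2 arrays have only a bound: 638 at 12 h alone, of which 94 were at least 2-fold higher by that bound, and 532 at 6 h alone, of which 106 were at least 2-fold lower at 12 h, against floors of 24.2 and 22.1 units.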
